A study of Mus musculus with 10 samples.

Results

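Tuft cell genes were followed in RNA-seq libraries of mouse jejunal crypts with and without the transcription factor ARID3A. They are 10 listed genes, Pou2f3, Trpm5, Gnat3, Dclk1, Avil, Sh2d6, Alox5ap, Ptgs1, Il25 and Il17rb, out of 54838 genes in the deposited files. They were taken as a list of known tuft cell genes, chosen with earlier results of these data known. Of the 10, 8 passed a filter on low counts and were tested among 14719 genes, while Il25 and Gnat3 were too low.

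RNA came from 5 WT and 5 Arid3a cKO mice (KO in the labels), 1 library per animal, collected 1 month after tamoxifen, which both genotypes received. The cKO mice carried Arid3a fl/fl alleles and a tamoxifen-inducible Cre (VillinCre-ERT2), so deletion is limited to Villin+ epithelial cells, and other cells of the preparation keep the gene. Whether WT animals carried the Cre or the floxed alleles, and the strain, sex and age of the animals, are not given in the sources used here. Villi were removed before jejunal crypts were taken, and the library kit selects polyadenylated RNA. Descriptions of the samples place the WT and cKO animals in separate series of animal numbers, so a colony or litter and the genotype cannot be told apart.

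Tuft cells are rare chemosensory cells of the intestinal epithelium, which arise from crypt progenitors under the control of the POU-domain factor POU2F3 and its coactivators. They use a signalling route shared with taste cells, in which G-protein subunits such as gustducin lead through phospholipase C and calcium release to opening of the cation channel TRPM5. After sensing parasites or microbial metabolites they release IL-25 and cysteinyl leukotrienes, which activate group 2 innate lymphoid cells. The IL-13 of those cells in turn makes crypt progenitors form more tuft cells and goblet cells.

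The deleted gene followed the labels. Arid3a stood at 1.91, 2.06, 2.75, 2.68 and 2.69 CPM (counts scaled to TMM-normalized library sizes) in WT replicates 1 to 5 and at 0.303, 0.516, 0.489, 0.883 and 1.17 CPM in cKO replicates 1 to 5. Its log2 fold change, here always cKO against WT, was -1.84 (SE 0.32, edgeR quasi-likelihood test with Benjamini-Hochberg adjustment over all genes, adjusted p = 0.00204). Libraries held 27050455 to 28152743 expected counts in WT and 28314069 to 31053622 in cKO animals, so that every cKO total exceeded every WT total, and 1 CPM corresponded to 26.45 to 29.88 counts. The TMM factors lay above 1 in each WT library and below 1 in each cKO library, and the median log2 fold change of all genes was -0.03 with them and -0.16 on library size alone. Summed epithelial markers (Epcam, Cdh1, Krt20, Vil1, Cdx2 and Krt19) reached 4036 to 4737 CPM in WT and 4992 to 5709 CPM in cKO animals without overlap. Without TMM these sums were 4294 to 4898 in WT and 4792 to 5460 in cKO animals. In TPM they were 3033 to 3452 and 3374 to 3911, and on both scales the groups overlapped. The part of this epithelial difference in the tuft cell values was not tested. Summed neural and glial markers reached 0.669 to 1.57 CPM in all animals. Summed enterocyte markers also differed without overlap, with 1224 to 6134 CPM in WT and 7747 to 13860 CPM in cKO animals, and WT replicates 3 and 4 stood lowest at 2077 and 1224 CPM. Calls of named genes that were lost without those 2 libraries are marked below with the value they then had.

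Across the tuft cell genes, 3 of the 8 tested were called at an adjusted p below 0.05, Sh2d6, Trpm5 and Dclk1, and all 3 were higher in cKO crypts, while 28.3% of all tested genes were called, 15.6% higher and 12.7% lower. On library size alone the calls over all genes turned from 2298 higher and 1869 lower to 1544 higher and 4030 lower. The increases were small, 1.15-fold to 1.4-fold. Of the 8 genes, 7 had a positive log2 fold change, with a median of 0.23, against 45.9% positive and a median of -0.03 over all genes. The other 5 tested genes, Pou2f3, Alox5ap, Il17rb, Avil and Ptgs1, did not pass the test. In bulk RNA, a change in the number of tuft cells and a change in the RNA per tuft cell cannot be told apart.

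**Figure D1:**
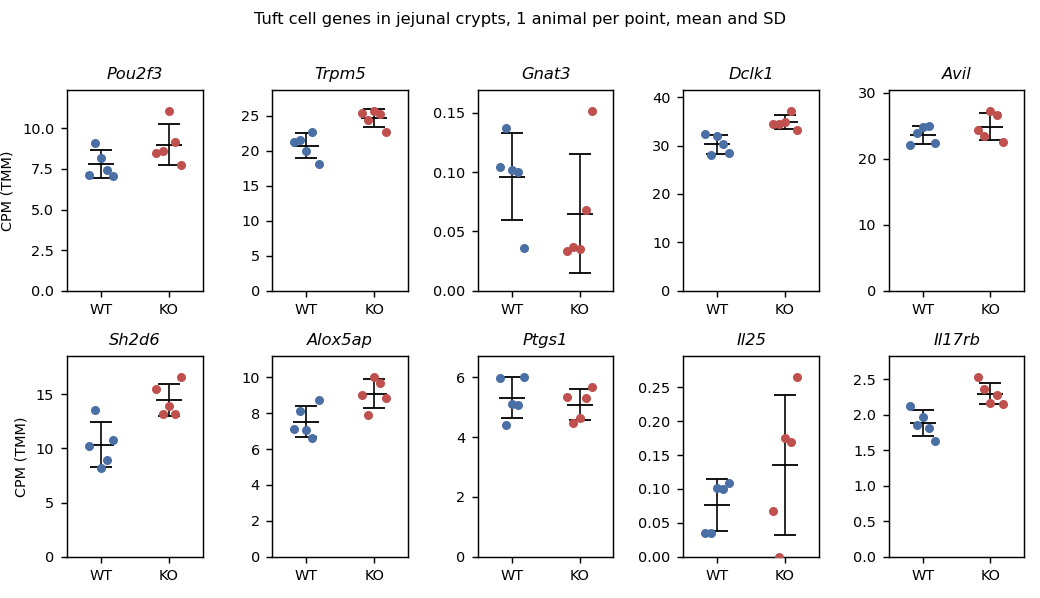
Levels of the 10 tuft cell genes in CPM on TMM-normalized library sizes, with 1 point per animal, a bar at the mean of 5 animals and error bars of 1 SD; each axis starts at 0. The cKO points of Dclk1 and of Il17rb all lie above the WT points, whereas the groups overlap for the other genes, and Gnat3 and Il25 stay below 0.3 CPM in all animals.

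Levels differed widely between the genes when set on a per-length scale, the TPM values of the authors. In WT crypts Alox5ap was highest with 17.9 ± 0.864 TPM (SD, n = 5), followed by Avil with 11.2 ± 1.29, Sh2d6 with 10.9 ± 1.97, Dclk1 with 8.89 ± 1.90 and Trpm5 with 8.40 ± 1.15 TPM. Then came Pou2f3 with 4.15 ± 0.492, Ptgs1 with 2.77 ± 0.402 and Il17rb with 1.23 ± 0.227 TPM, while Gnat3 and Il25 were each listed at 0.10 TPM. The WT values of Avil and Sh2d6, Sh2d6 and Dclk1, Dclk1 and Trpm5, and Gnat3 and Il25 overlapped, so the order within these neighbours is not resolved, whereas the other neighbours did not overlap. In cKO crypts Sh2d6, at 14.4 ± 1.65 TPM, stood above Avil, at 11.1 ± 1.23 TPM, in every animal, while in WT crypts 2 of 5 animals had Avil above Sh2d6.

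The lineage factor Pou2f3, a homeodomain protein without which tuft cells do not form (GRCm38, chr9:43123939-43210369, minus strand), did not pass the test. It was at 7.13, 9.12, 8.17, 7.43 and 7.05 CPM in WT animals and at 8.45, 8.58, 11.04, 9.17 and 7.75 CPM in cKO animals. WT replicate 2 lay above 3 of the cKO animals, and the groups overlapped. The log2 fold change of Pou2f3 was 0.21 with a 95% interval from -0.04 to 0.46 (edgeR, adjusted p = 0.195), so an increase of up to 1.38-fold or a small decrease lies within the error.

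Of the transduction genes, the cation channel gene Trpm5 rose. Trpm5 (chr7:143069153-143094642, minus strand) was at 21.2, 21.5, 20.0, 22.7 and 18.1 CPM in WT and at 25.4, 24.3, 25.6, 25.3 and 22.7 CPM in cKO animals. WT replicate 5 was lowest, and WT replicate 4 and cKO replicate 5 met near 22.7 CPM, so the groups just overlapped. Its log2 fold change was 0.25 (SE 0.08, edgeR, adjusted p = 0.0270), or 1.19-fold with a 95% interval from 1.06 to 1.33. Gnat3 encodes the alpha subunit gustducin (chr5:17962549-18019834, plus strand), and its expected counts were 3, 4, 3, 3 and 1 in WT and 1, 1, 1, 2 and 4 in cKO libraries. At 1 to 4 counts no difference in Gnat3 was detectable (two-sided exact permutation test on log2(CPM + 0.5), p = 0.286).

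Dclk1, a microtubule-associated kinase and the most used tuft cell marker, rose in CPM on TMM-normalized library sizes. It was at 32.3, 28.1, 31.9, 30.4 and 28.6 CPM in WT animals and at 34.5, 34.4, 35.0, 37.1 and 33.2 CPM in cKO animals. Every cKO animal lay above every WT animal, which was so for 12% of all tested genes, while every cKO animal lay below every WT animal for 7.62%, or 19.6% in both directions. The log2 fold change of Dclk1 was 0.20 (SE 0.06, edgeR, adjusted p = 0.0350), or 1.15-fold with a 95% interval from 1.04 to 1.27. On library size alone it was 0.07 (edgeR, adjusted p = 0.465).

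In TPM the picture of Dclk1 was different, with 8.70, 7.27, 8.35, 12.2 and 7.98 TPM in WT and 8.54, 6.89, 7.89, 11.3 and 10.8 TPM in cKO animals. WT replicate 4 was highest and cKO replicate 2 lowest, the groups overlapped, and limma on log2(TPM + 0.5) gave a log2 fold change of 0.03 for Dclk1 (adjusted p = 0.918). The effective length that RSEM gave Dclk1 ranged from 3478 to 5818 bases between libraries, a span of 1.67-fold, with WT replicate 4 and cKO replicate 5 shortest. Dclk1 (chr3:55242364-55539068, plus strand) has 15 annotated transcripts, and the RefSeq promoter table gives it a distal and an internal start site. TPM divides by this length, so an animal with a short estimate has a high TPM at the same count. With effective length as an offset and TMM, the log2 fold change was 0.14 (edgeR, adjusted p = 0.478). The parts of length and of scaling in the TPM value were not tested. Another 6 annotated genes overlap Dclk1, and the strand setting of the counting is not stated.

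Avil encodes the actin-binding protein advillin, a structural tuft cell marker (chr10:127000709-127020994, plus strand), and did not pass the test. Its values were 22.1, 23.8, 24.8, 24.9 and 22.3 CPM in WT and 24.3, 23.4, 27.1, 26.7 and 22.6 CPM in cKO animals, with cKO replicates 1, 2 and 5 within the WT range. The log2 fold change was 0.07 with a 95% interval from -0.09 to 0.23 (edgeR, adjusted p = 0.494), and its sign was negative, at -0.06, on library size alone. For Avil an increase above 1.18-fold therefore lies outside the 95% interval.

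Sh2d6, an SH2-domain adaptor gene (chr6:72513641-72521707, minus strand), rose most of the 8 tested genes. It was at 10.2, 13.6, 8.24, 8.94 and 10.8 CPM in WT and at 15.5, 13.2, 13.9, 13.2 and 16.6 CPM in cKO animals. WT replicate 2 lay among the cKO animals, and the other 4 WT animals lay below all of them. The log2 fold change of Sh2d6 was 0.49 (SE 0.13, edgeR, adjusted p = 0.0165), or 1.40-fold with a 95% interval from 1.15 to 1.70. WT replicates 3 and 4, the lowest for Sh2d6, are the libraries with the lowest enterocyte marker sums, and without them its log2 fold change was 0.33 (adjusted p = 0.106).

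Among genes of eicosanoid synthesis, Alox5ap encodes FLAP, the membrane protein that presents arachidonic acid to 5-lipoxygenase for leukotriene synthesis (chr5:149264767-149288153, plus strand). Alox5ap was at 7.13, 8.12, 7.05, 6.63 and 8.72 CPM in WT and at 9.02, 7.92, 9.99, 9.68 and 8.85 CPM in cKO animals. Only cKO replicate 2 fell among the WT animals, and the log2 fold change was 0.27 with a 95% interval from 0.04 to 0.50, which missed the threshold after adjustment (edgeR, adjusted p = 0.0711). Ptgs1 encodes the constitutive cyclooxygenase (chr2:36230426-36252272, plus strand) and was at 5.98, 4.40, 5.12, 5.09 and 5.996 CPM in WT and at 5.35, 4.46, 4.65, 5.30 and 5.67 CPM in cKO animals. The groups of Ptgs1 lay on top of each other, with a log2 fold change of -0.06 and a 95% interval from -0.34 to 0.21 (edgeR, adjusted p = 0.732).

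Alox5ap and Ptgs1 are also expressed by myeloid and mast cells. The macrophage receptor gene Csf1r averaged 7.95 ± 2.71 CPM in WT and, in cKO animals, 3.89 ± 2.16 CPM (edgeR, adjusted p = 0.0554), and the 8 myeloid markers together at 39.8 to 85.6 and 26.0 to 108 CPM. The mast cell protease gene Cpa3 was at 0.0335 to 0.363 CPM in all animals. By edgeR none of the 8 myeloid and 3 tested mast cell markers was called, with 1 and 0 at an unadjusted p below 0.05, and DESeq2 called 1 and 0, and the part of these cells in the values of Alox5ap and Ptgs1 was not tested. The 5 B and plasma cell markers, cells that also express genes such as Alox5, Alox5ap, Rgs13 and Spib, summed to 19.1 to 56.6 CPM in WT and 6.78 to 18.9 CPM in cKO animals without overlap, and 1 of 5 was called lower, at a median change of -1.95 on the log2 scale. The stromal and endothelial markers summed to 13.0 to 85.2 and 9.53 to 133 CPM, with 2 of 7 tested called lower, and the part of either group of cells in the values of tuft cell genes was not tested.

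Of the IL-25 axis, the cytokine gene Il25 (chr14:54932695-54935837, plus strand) had expected counts of 1, 1, 3, 3 and 3 in WT and 2, 0, 5, 5 and 7 in cKO libraries. The 3 highest counts were in cKO animals and so was the only 0, and no difference was detectable at this depth (two-sided exact permutation test, p = 0.317). Il17rb, the subunit of the IL-25 receptor that binds the cytokine (chr14:29996135-30008896, minus strand), was at 2.12, 1.86, 1.97, 1.81 and 1.64 CPM in WT and at 2.53, 2.36, 2.17, 2.28 and 2.16 CPM in cKO animals. The groups of Il17rb did not overlap, yet with 45 to 75 counts per library the log2 fold change of 0.29 had a 95% interval from -0.04 to 0.62 (edgeR, adjusted p = 0.170).

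**Figure D2:**
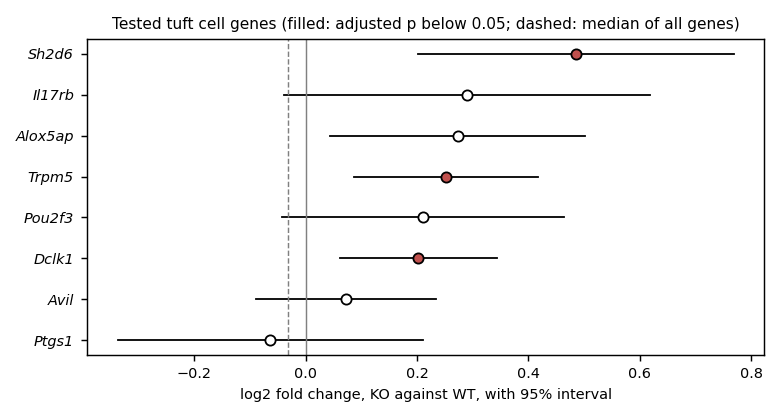
Log2 fold changes of the 8 tested tuft cell genes, cKO against WT, as points with 95% intervals, where filled points have an adjusted p below 0.05; the solid line marks 0 and the dashed line the median of all tested genes at -0.03. Only Ptgs1 lies below 0, and the called genes Dclk1, Trpm5 and Sh2d6 have intervals above 0.

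The calls depended on the scaling. On library size alone, 1 of the 8 genes was called, Sh2d6 with a log2 fold change of 0.36, and the values of Dclk1 and Trpm5 fell to 0.07 and 0.12 (edgeR, adjusted p = 0.465 and 0.294). The median over the 8 genes was 0.23 with TMM and 0.10 on library size alone, and it lay 0.26 above the median of all genes under both, as a change of scaling moves all genes of a library by the same factor. With limma on log2(TPM + 0.5) the median was 0.10, or 0.21 above that of all genes, and only Sh2d6 was called, with a log2 fold change of 0.39. On unfiltered TPM the median lay 0.13 above that of all genes, and none of the 8 genes was called by limma, with 1 at an unadjusted p below 0.05. Without WT replicates 3 and 4 none of the 8 genes was called by edgeR, with 0.23 for Dclk1 (adjusted p = 0.0670) and 0.28 for Trpm5 (adjusted p = 0.0564), 3 had an unadjusted p below 0.05, and the median was 0.22, while the calls over all genes dropped from 4167 to 2142.

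**Figure D3:**
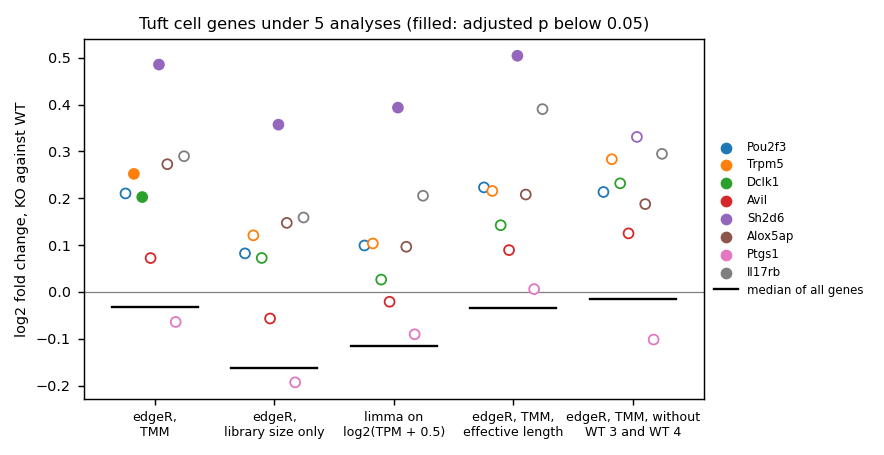
Log2 fold change of each of the 8 tested tuft cell genes (colours) under 5 analyses, with filled points for an adjusted p below 0.05 and a black line at the median of all genes tested in that analysis. All points move down together on library size alone and in TPM, as the black line does, and no point is filled without WT replicates 3 and 4.

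Summed over the 10 genes, the CPM values were 108, 111, 107, 108 and 103 in WT and 125, 119, 130, 129 and 120 in cKO animals, so that the groups did not overlap with TMM. Without TMM the sums were 104 to 117 in WT and 112 to 127 in cKO animals, and in TPM 60.6 to 70.2 and 61.4 to 78.7, and on both scales the groups overlapped. The sum weights the abundant genes Dclk1, Avil and Trpm5 most.

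Variation between animals of a genotype was not shared by the genes. After subtraction of the genotype mean from log2 CPM, the 28 pairs of the 8 tested genes had a median Pearson r of 0.00 over 10 libraries, and 14 pairs were above 0. Pou2f3 and Avil were most alike with r = 0.75, and Dclk1 and Sh2d6 ran most opposite with r = -0.74. These points share library and normalization, and the lower genes carry counting error.

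The 10 genes most like the mean of the 8 standardized profiles, by Pearson r over 10 libraries after removal of the genotype means and among 12829 genes, were Ly6g6d, Amigo3, Taz, Ccrl2, Slc4a7, Cfap74, Gm28523, Slc37a2, Lrrc26 and Slc16a9. Their r ran from 0.89 for Ly6g6d to 0.85 for Slc16a9, and 99% of all compared genes had an r below 0.68. Ly6g6d alone of these 10 is listed for the tuft cluster of the study's single-cell data, as are 539 of all 14719 tested genes. It rose from 1.23 to 1.97 CPM in cKO crypts (edgeR, log2 fold change 0.68, adjusted p = 0.0440), and without WT replicates 3 and 4 the value was 0.70 (adjusted p = 0.124).

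The coactivator gene of POU2F3 changed more than Pou2f3 itself. 1810046K07Rik, also known as Pou2af2, encodes OCA-T1, which binds POU2F3 at octamer sites and is needed for tuft cells (chr9:51289686-51328917, minus strand). It was at 3.44, 4.47, 2.85, 2.58 and 2.43 CPM in WT and at 5.89, 6.08, 5.21, 6.12 and 7.26 CPM in cKO animals. Every cKO animal lay above every WT animal, and the log2 fold change was 0.95 (SE 0.18, edgeR, adjusted p = 0.00292), or 1.93-fold with a 95% interval from 1.49 to 2.52. It held in 23 of 24 other analyses, with values from 0.82 to 1.11, and was lost only in a test against a fold change of 1.5 (adjusted p = 0.216). Colca2, the gene of the paralogous coactivator OCA-T2 that lies beside it, averaged 10.01 CPM in WT and, in cKO animals, 10.9 CPM (edgeR, log2 fold change 0.12, 95% interval from -0.16 to 0.40, adjusted p = 0.505).

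Promoter sequences, from RefSeq for GRCm38.p6, were read for the 250 bases before the start sites of 18 named genes with an entry. Apart from the listed tuft cell genes and Colca2, all of these genes were called higher in cKO crypts. Genes called lower, such as Nradd, Ascl2, Sox4 and Atoh1, were not among them, nor were Spib, Hmx2 and Hmx3. The sequences of the distal start of the coactivator gene 1810046K07Rik, of the 3 called tuft cell genes and of Kctd12 are shown. The motifs searched on both strands were the octamer ATGCAAAT, which POU factors bind, the ARID3A core ATTAAA and the TATA box TATAAA, in windows that also held 50 bases after the start. Among 32851 such windows of all genes, 1.74% held the octamer, 0.107% held it more than once, 13.9% held ATTAAA and 13.6% held TATAAA. Sequences below run 5′ to 3′ on the strand of the gene, and capitals mark octamer matches.

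1810046K07Rik (chr9:51328919-51329168, minus strand): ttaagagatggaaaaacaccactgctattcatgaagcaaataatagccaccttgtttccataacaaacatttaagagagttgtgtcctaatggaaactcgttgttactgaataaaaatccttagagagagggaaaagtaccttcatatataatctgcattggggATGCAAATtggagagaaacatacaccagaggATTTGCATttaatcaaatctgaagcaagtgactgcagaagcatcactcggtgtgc
Kctd12 (chr14:102982638-102982887, minus strand): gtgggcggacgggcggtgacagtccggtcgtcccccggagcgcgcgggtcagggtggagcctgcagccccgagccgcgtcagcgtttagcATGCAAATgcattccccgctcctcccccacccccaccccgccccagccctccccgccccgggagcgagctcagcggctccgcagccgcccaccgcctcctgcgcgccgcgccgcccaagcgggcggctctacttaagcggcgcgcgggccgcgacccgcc
Sh2d6 (chr6:72520037-72520286, minus strand): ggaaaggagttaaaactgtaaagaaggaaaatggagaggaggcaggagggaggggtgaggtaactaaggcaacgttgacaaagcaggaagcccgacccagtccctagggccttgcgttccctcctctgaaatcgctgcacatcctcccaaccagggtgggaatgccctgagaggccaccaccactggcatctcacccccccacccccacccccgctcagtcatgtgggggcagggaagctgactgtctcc
Trpm5 (chr7:143094643-143094892, minus strand): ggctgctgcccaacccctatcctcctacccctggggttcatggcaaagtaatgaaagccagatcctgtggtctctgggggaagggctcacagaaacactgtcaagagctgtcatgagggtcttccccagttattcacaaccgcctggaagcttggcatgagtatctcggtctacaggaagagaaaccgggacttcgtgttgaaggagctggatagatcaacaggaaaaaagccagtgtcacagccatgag
Dclk1, distal start (chr3:55242114-55242363, plus strand): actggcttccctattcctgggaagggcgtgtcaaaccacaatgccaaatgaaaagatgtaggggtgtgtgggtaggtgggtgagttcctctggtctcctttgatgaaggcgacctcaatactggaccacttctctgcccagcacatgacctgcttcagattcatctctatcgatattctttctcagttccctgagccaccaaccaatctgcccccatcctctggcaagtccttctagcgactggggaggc
Dclk1, internal start (chr3:55461478-55461727, plus strand): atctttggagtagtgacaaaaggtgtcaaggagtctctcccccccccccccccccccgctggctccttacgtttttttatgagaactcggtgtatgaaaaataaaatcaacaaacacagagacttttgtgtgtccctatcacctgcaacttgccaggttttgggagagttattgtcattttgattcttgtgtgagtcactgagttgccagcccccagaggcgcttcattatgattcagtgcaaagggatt

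The distal window of 1810046K07Rik held the octamer 86 and 55 bases before the start, once in each orientation, and the complement of ATTAAA 48 bases before the start. An internal start of this gene also has an entry (chr9:51312670-51312919, minus strand). Its window, not shown, held no match to the octamer, ATTAAA or TATAAA. Kctd12, a gene of the tuft signature described below, is shown because its window held the octamer 160 bases before the start. Among the 18 genes read, the octamer was found for 1810046K07Rik and Kctd12 only, and the other named genes are not covered. Of the 10 tuft cell genes, 7 had an entry with 8 windows, none of which held the octamer or TATAAA, and 1 of which, that of Gnat3, held ATTAAA. Pou2f3, Il25 and Alox5ap had no entry. The window shown for Sh2d6 lies inside the annotated gene, before shorter transcripts that start at chr6:72520036. The longest Sh2d6 transcript starts further upstream, at chr6:72521707. A match in these windows is a description of the letters only, and binding was not measured in these libraries.

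The other regulators of the lineage did not move as 1 group. Of 12 transcription factor and coactivator genes tested, 2 rose and 3 fell, or 41.7% called against 28.3% of all genes, with a median log2 fold change of -0.00. Gfi1b, the repressor typical of tuft cells, rose from 0.648 ± 0.0974 to 1.05 ± 0.157 CPM without overlap (edgeR, log2 fold change 0.69, adjusted p = 0.0326), and its call was lost in 16 of 24 other analyses. The tuft cell factors Spib, Hmx2 and Hmx3 had log2 fold changes of -0.01, 0.08 and -0.02 and did not pass the test. The 3 genes that fell are not listed for the single-cell tuft cluster, while the 2 that rose are. Ascl2, the WNT-dependent stem cell factor (edgeR, -0.57, adjusted p = 0.0284), is listed for the stem and transit-amplifying clusters. Sox4, a progenitor factor linked to tuft cell fate (edgeR, -0.42, adjusted p = 0.0457), is listed for the stem cell cluster. Atoh1, the secretory lineage factor (edgeR, -0.31, adjusted p = 0.0193), is listed for the goblet cluster. Without WT replicates 3 and 4 the values were -0.43 for Ascl2 (adjusted p = 0.150), -0.21 for Sox4 (adjusted p = 0.262) and -0.27 for Atoh1 (adjusted p = 0.065), while Gfi1b had 0.68 (adjusted p = 0.126). Without WT replicate 3, WT replicate 4 or cKO replicate 1, 3 or 5 only 2 of the 12 genes were called. The summed stem cell markers, which include Ascl2, were at 5173 to 8718 CPM in WT and 4220 to 6307 CPM in cKO crypts, and their part in these decreases was not tested.

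Taste-type transduction genes beyond Trpm5 and Gnat3 rose in 3 of 9 tested cases and fell in none, or 33.3% called against 28.3% of all genes, with a median of 0.28. Rgs13, a regulator of G-protein signalling, was at 12.6, 10.4, 10.1, 9.81 and 12.2 CPM in WT and at 14.5, 17.2, 18.1, 18.4 and 21.4 CPM in cKO animals. Every cKO animal lay above the WT animals, with a log2 fold change of 0.70 (SE 0.11, edgeR, adjusted p = 0.00155), or 1.63-fold. Trpm4, the channel that acts beside TRPM5 in taste cells, rose by 0.55 on the log2 scale (adjusted p = 0.00296), and Gnb1, a widely expressed G-protein beta subunit gene, by 0.35 (adjusted p = 0.00598), but neither is listed for the single-cell tuft cluster. Phospholipase gene Plcb2 (-0.11, adjusted p = 0.622), the calcium release channel gene Itpr2 (0.27, adjusted p = 0.297) and the G-protein gamma subunit gene Gng13 (-0.67, adjusted p = 0.195), all listed for that cluster, did not pass the test.

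Synthesis genes for eicosanoids and acetylcholine gave 3 increases among 11 tested genes and no decrease, or 27.3% called against 28.3% of all genes, with a median of 0.04. Alox5, which encodes the 5-lipoxygenase served by FLAP, was at 7.37, 7.67, 6.07, 5.52 and 7.96 CPM in WT and at 10.1, 7.96, 10.9, 8.15 and 9.34 CPM in cKO animals, with WT replicate 5 and cKO replicate 2 at the same level. Its log2 fold change was 0.43 (edgeR, adjusted p = 0.0298), and without WT replicates 3 and 4 it was 0.28 (adjusted p = 0.175). Lta4h, the leukotriene A4 hydrolase gene that most cells use, rose by 0.22 (adjusted p = 0.0370), and Pla2g4c, a phospholipase gene, by 1.52 (adjusted p = 0.0180) from 1.89 ± 0.979 to 5.39 ± 3.15 CPM. When WT replicates 3 and 4 were left out, these values were 0.17 for Lta4h (adjusted p = 0.184) and 1.29 for Pla2g4c (adjusted p = 0.129). Tuft cell genes Ltc4s (leukotriene C4 synthase, 0.38, adjusted p = 0.243), Hpgds (prostaglandin D synthase, 0.04, adjusted p = 0.871) and Chat (choline acetyltransferase, 0.39, adjusted p = 0.385) did not pass the test.

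In the type 2 circuit, 2 of 10 tested genes rose and none fell, which is 20% called against 28.3% of all genes, with a median of 0.15. Il13ra1, the epithelial receptor subunit for IL-13, was at 67.7, 61.5, 60.8, 66.0 and 67.3 CPM in WT and at 99.2, 93.7, 97.2, 100.025 and 102 CPM in cKO animals. The gap between its groups was far wider than the spread within them, with a log2 fold change of 0.61 (SE 0.06, edgeR, adjusted p = 0.00018), or 1.52-fold. Il33, the alarmin gene, rose by 1.19 (adjusted p = 0.0306), with 3.08 to 7.12 CPM in WT and 3.599 to 13.9 CPM in cKO animals and cKO replicate 3 among the WT values, and without WT replicates 3 and 4 its value was 0.97 (adjusted p = 0.169). Both genes are listed for enterocyte clusters of the single-cell data, Il13ra1 also for the tuft cluster, and the part of enterocytes in their values was not tested. The IL-25 receptor partner Il17ra (0.12, adjusted p = 0.302) and the IL-4 and IL-13 receptor chain Il4ra (0.18, adjusted p = 0.109) did not pass the test, and the cytokine genes Il13, Il5 and Il9 were listed at 0 in all 10 libraries.

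**Figure D4:**
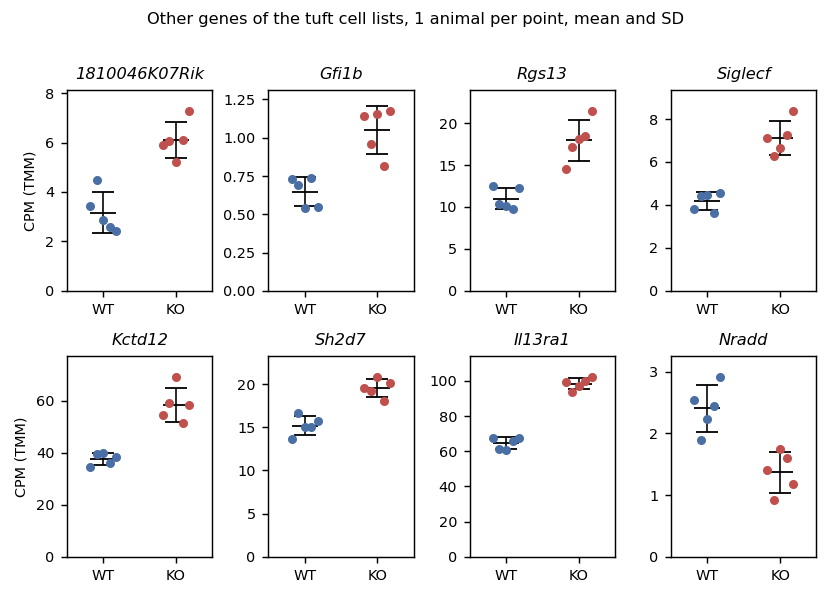
CPM of 8 further genes of the tuft cell lists, with 1 point per animal, a bar at the mean of 5 animals and error bars of 1 SD, on axes that start at 0. In each panel the groups do not overlap, with cKO animals higher for every gene except Nradd.

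A wider list of 30 tuft cell signature genes, all tested, gave 9 increases and no decrease, which is 30% called against 28.3% of all genes, with 23 positive values and a median of 0.16. Kctd12, a potassium channel tetramerization domain gene, was at 34.4, 39.6, 39.9, 35.9 and 38.3 CPM in WT and at 54.4, 59.1, 69.0, 51.6 and 58.2 CPM in cKO animals, without overlap (edgeR, log2 fold change 0.64, adjusted p = 0.000736). In TPM the increase of Kctd12 was smaller, with a log2 fold change of 0.17 (limma on log2(TPM + 0.5), adjusted p = 0.239). Kctd12 is also listed for the enteroendocrine cluster of the single-cell data, and the part of those cells in its value was not tested. The SH2-domain gene Sh2d7, a relative of Sh2d6, rose from 15.2 ± 1.13 to 19.6 ± 1.02 CPM (0.36, adjusted p = 0.00558), and its call was lost only in the test against a fold change of 1.5.

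The TEC-family kinase gene Bmx rose without overlap from 5.60 ± 0.428 to 7.87 ± 1.05 CPM (edgeR, log2 fold change 0.49, adjusted p = 0.00886). Further increases on this list were those of Strip2 (0.47) and Ly6g6f (0.74), both named after their values were seen, Siglecf (0.77), Espn (1.20) and Tm4sf4 (0.75). After removal of WT replicates 3 and 4 the values were 0.42 for Strip2 (adjusted p = 0.0662) and 0.62 for Ly6g6f (adjusted p = 0.156). Espn, an actin-bundling protein gene of microvilli, was also low where enterocyte markers were low, at 12.2 and 10.5 CPM in WT replicates 3 and 4, and the part of enterocytes in its value was not tested.

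Markers of the described tuft cell subtypes were few. Siglecf, which encodes a sialic acid-binding lectin of mature intestinal tuft cells and eosinophils, was at 3.83, 4.44, 4.48, 3.61 and 4.58 CPM in WT and at 7.10, 6.26, 6.64, 7.27 and 8.36 CPM in cKO animals. Its groups did not overlap, with a log2 fold change of 0.77 (SE 0.12, edgeR, adjusted p = 0.00149), or 1.70-fold. Of the 4 tested immune-like tuft-2 genes, 2 rose, Siglecf and Tm4sf4, or 50% called against 28.3% of all genes. Among the 5 neuron-like tuft-1 genes, Rgs2 rose (0.57, adjusted p = 0.00868) and Nradd, a death domain receptor-like gene, fell from 2.40 ± 0.375 to 1.37 ± 0.330 CPM (-0.81, adjusted p = 0.0140). That is 40% called, with a median of -0.27 over the 5 genes. Without WT replicates 3 and 4 the values were 0.43 for Rgs2 (adjusted p = 0.0618), -0.83 for Nradd (adjusted p = 0.0543) and 0.65 for Tm4sf4 (adjusted p = 0.0655). Both Tm4sf4 and Rgs2 are also listed for the enteroendocrine and goblet clusters of the single-cell data. The part of those cells in their values was not tested. The pan-leukocyte gene Ptprc is a tuft-2 gene as well, and the lymphocyte markers that include it summed to 83.7 to 291 CPM in WT and 124 to 308 CPM in cKO crypts, with 0 of 8 called by edgeR or DESeq2 and 0 at an unadjusted p below 0.05.

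Over all the fixed tuft lists other than the 10 genes, 77 of 97 genes were tested, of which 20 rose and 4 fell, or 31.2% called against 28.3% of all genes. Without WT replicates 3 and 4, 10 of these 24 were still called, namely 1810046K07Rik, Rgs13, Siglecf, Kctd12, Sh2d7, Bmx, Espn, Trpm4, Gnb1 and Il13ra1, whose log2 fold changes ran from 0.27 for Gnb1 to 0.90 for Espn. The 14 others missed the threshold with fewer animals, and all kept their direction. Of the 77 tested genes, 41 are strong markers of the study's single-cell tuft cluster (cluster log fold change of at least 5). These gave 10 increases and no decrease, with a median of 0.14. The 36 others gave 10 increases and 4 decreases, with a median of 0.06. Over all genes 15.6% were called higher and 12.7% lower, with a median of -0.03. The difference between the 2 parts was not tested. The lists overlap each other, and the cluster lists come from mice of the same study, though from other libraries.

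Of the 133 strong marker genes of the tuft cluster, 125 were tested, and 22 rose and 5 fell, which is 21.6% called against 28.3% of all genes. Their log2 fold changes were positive in 68.8%, against 45.9% of all genes, with a median of 0.14, and on library size alone the median was 0.00 against -0.16 for all genes, with 12 genes higher and 11 lower. Decreases among them included that of the angiotensinogen gene Agt (-0.74, adjusted p = 0.0129), which was named after its values were seen and had -0.61 without WT replicates 3 and 4 (adjusted p = 0.0799). Of all 552 genes listed for the cluster at any strength, 539 were tested, 83 rose and 57 fell, which is 26% called, with 51.9% positive and a median of 0.01. Without WT replicates 3 and 4, 8 of the strong marker genes were called, 6 higher and 2 lower.

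**Figure D5:**
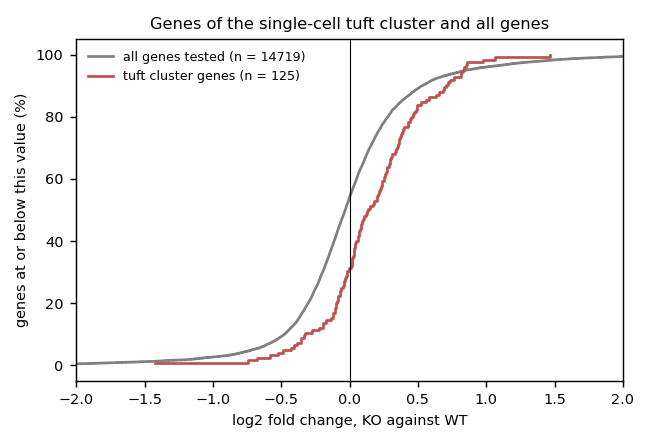
Cumulative share of genes (vertical axis, %) at or below each log2 fold change, cKO against WT, for all 14719 tested genes in grey and 125 strong marker genes of the single-cell tuft cluster in red; values beyond 2 in either direction are not drawn. The red curve lies to the right of the grey one around 0, with medians of 0.14 and -0.03.

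Other secretory cells of the crypt set a scale for these values. Median log2 fold changes were 0.45 for 7 enteroendocrine markers, of which 3 were called higher, 0.10 for 7 goblet cell markers, of which 1 was called lower, and -0.68 for 5 Paneth cell markers, of which 4 were called lower. All 7 enterocyte markers were called higher, with a median of 1.80. With 1 animal left out, 3 to 7 enterocyte and 2 to 5 enteroendocrine markers were called. The same fits called 1 to 2 goblet and 3 to 4 Paneth cell markers. On library size alone 1 enteroendocrine marker was called, and DESeq2 called 5. Counts without WT replicates 3 and 4 are not given for these lists. Over all genes 15.6% were called higher and 12.7% lower. Tuft cell genes, with a median of 0.23, thus lay between the goblet and the enteroendocrine markers. Differences between the lists were not tested.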

How the data were processed

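Jejunal crypt RNA of 5 WT and 5 Arid3a cKO mice was sequenced, 1 library per animal, and groups follow the labels. Within nf-core/rnaseq the authors aligned reads by STAR and estimated by RSEM, for each gene of the Ensembl GRCm38 annotation, the deposited expected counts, TPM and effective length. The deposited TPM values, scaled by length and to a common total, keep no depth. RSEM divides reads among genes, and the strand setting is not given in the sources used here.

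Rounded expected counts went into edgeR 4.0.16 (R 4.3.3), with filterByExpr (minimum count 10, minimum total 15), TMM, robust glmQLFit and glmQLFTest on genotype, Benjamini-Hochberg adjustment over 14719 genes, threshold 0.05. CPM used TMM-normalized library sizes, errors are SD over 5 animals, and intervals are 95% intervals of the fit. Single low genes were compared by a two-sided exact permutation test over 252 assignments (smallest possible p 0.00794) on log2(CPM + 0.5). TPM was tested with limma 3.58.1, with trend, on log2(TPM + 0.5); these fold changes understate those of low genes. Totals of 27050455 to 31053622 counts leave genes near 1 CPM with some 26 to 30 counts, and reads carry no molecular identifiers.

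The tuft cell genes and lists were chosen with earlier results of these data known. Named were all 10 genes, every called gene of a tuft list or, where over 6 were called, the 6 of highest mean TPM, and the 10 genes of most similar profile. A few such genes are counted in the lists but not reported here by name. The tuft cluster lists come from the study's single-cell marker sheets, of which only gene names and a log fold change threshold of 5 were used. Overlapping genes and start sites come from GENCODE and RefSeq. The files pair gene identifiers with no symbols, and 54723 of 54838 were matched to a symbol; the others, with 0.0193% of counts, stayed in the library sizes. The scripts were tested on simulated data. Alternatives were DESeq2 1.42.0, RLE factors, limma-voom, other filters, unrounded counts, effective length as an offset, replicate blocks, a fold change above 1.5 and leaving out animals. Leaving out WT replicates 3 and 4 together, and the alternatives for 14 further genes, were added after seeing the data.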

Additional observations from a re-analysis of the deposited data

How the results depend on the processing

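The number of tuft cell genes called was 3 with RLE factors, DESeq2, limma-voom, unrounded counts and a stricter filter, as in the report. It was 1, Sh2d6, on library size alone, without a filter, with effective length as an offset and with limma on log2(TPM + 0.5) or log2(TPM + 0.1), and 0 with limma on unfiltered TPM, in a test against a fold change of 1.5, and without WT replicates 3 and 4. Leaving out 1 animal gave 1 to 4 tuft cell genes, with 1 without cKO replicates 1, 3 or 4, and Sh2d6 lost its call without cKO replicate 5. Strong tuft cluster genes called fell from 27 to 16, 15 and 8 with limma on log2(TPM + 0.5), log2(TPM + 0.1) and unfiltered TPM, to 15 with effective length, to 0 against a fold change of 1.5, to 8 without WT replicates 3 and 4, and ranged from 17 to 27 without 1 animal. With 1 animal left out, 2 to 4 of 12 lineage regulators, 1 to 3 eicosanoid and acetylcholine genes, 1 to 3 type 2 circuit genes and 8 to 10 signature genes were called. Over all genes 96 were called against a fold change of 1.5, 2142 without WT replicates 3 and 4, 3007 to 4684 without 1 animal and 5574 on library size alone. On the log2 scale Avil turned to -0.0567 on library size alone, -0.0209 with limma on log2(TPM + 0.5), filtered or not, and -0.0216 with log2(TPM + 0.1), and Ptgs1 to 0.00607 with effective length; neither was called anywhere. The cause of these shifts was not tested. Replicate numbers did not pair the animals (r of deviations from -0.157 to 0.131, 0 of 5 best with their own number), and a block on that number left 3048 calls over all genes and 2 tuft cell genes, Trpm5 and Sh2d6. Depth limits Il25 and Gnat3, with at most 7 and 4 counts, and the width of the interval of Il17rb, with 45 to 75 counts.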
